A study of Mus musculus with 2 samples.

Results

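The mitochondrial carrier family was followed in the liver of calorie-restricted mice through 91 probe sets for 43 genes, of 45101 probe sets and 18193 named genes on the array. The members were the probe sets whose only gene symbol in the platform annotation was Slc25a followed by a number, apart from Slc25a13, Slc25a15 and Slc25a20, together with those of Ucp1, Ucp2 and Ucp3. That choice used gene symbols and no measured value, but it was made with earlier results of these data known. The genes were grouped by the substrate that each protein is known, reported or thought to carry, with a class for those without a settled substrate. Ucp2, Slc25a21, Slc25a43 and Slc25a52 are family members that no probe set named alone, and they were not analysed here.

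The groups were AL, male wild-type C57BL/6J mice with free access to food for 12 weeks from 8 weeks of age, and CR, mice of the same strain, sex and age whose food was cut by 20% for the first week, then by 40% for 11 weeks. All mice were housed singly and were 5 months old per the labels. Equal amounts of liver RNA from 3 mice went into the pool of each diet, and each pool was run on 1 array. There was thus no replicate, no p-value and no measure of the spread between mice, and every difference compares these pools. In a whole-liver pool, fewer cells of a type and less RNA per cell cannot be told apart.

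SLC25 proteins sit mainly in the inner mitochondrial membrane and move metabolites, nucleotides, cofactors and ions between matrix and cytosol, most often by exchange of one substrate for another. In liver they link the matrix to gluconeogenesis, fatty acid synthesis, nitrogen disposal, heme synthesis and redox balance. The uncoupling proteins belong to the same family, and Ucp1 lets protons leak across the membrane to make heat in brown fat.

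Each value is the deposited array intensity, and each difference is the log2 intensity of CR minus that of AL. Where a gene had several probe sets, the brightest by mean log2 intensity stood for it. It was called measured if it reached an intensity of 7.38, the median of all values, on at least 1 array, and 37 of the 43 carriers were. The hepatocyte genes Alb, Apoa1 and Ttr were at intensities of 11790 to 14050 on both arrays, so the labelled tissue's defining markers were present. For the Actb controls the 3' signal exceeded the 5' signal 83.5-fold in AL and 89.7-fold in CR, a strong 3' bias on both arrays. Over the middle of the transcript the excess was unequal between arrays, 11.1-fold in AL and 20.4-fold in CR for Actb and 4.46-fold and 6.04-fold for Gapdh. Its part in the differences between probe sets below was not tested. The 3' control probe sets themselves stood at -0.73 for Actb and -0.67 for Gapdh, each at least 1.5-fold lower in CR. Probes differ in how strongly they bind, so levels are set against each other between diets and not between genes.

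Most carrier genes lay close to the typical gene, and 5 stood at least 1.5-fold higher in the CR pool, relative to the typical gene. They were Slc25a34, an orphan carrier, Slc25a47, a carrier made mainly in liver, Slc25a36, a pyrimidine nucleotide carrier, and Slc25a16 and Slc25a42, the carriers linked to coenzyme A. These 5 of 37 make 13.5%, against 6.76% of all 12644 measured genes. No carrier was at least 1.5-fold lower on its brightest probe set, against 9.49% of all measured genes. Slc25a34 alone was at least 2-fold higher, against 1.80% of all genes, and none was 2-fold lower, against 2.79%. The median over the 37 genes was 0.09, against -0.02 over all measured genes, and 20 of them, or 54.1%, lay above 0, against 47.4% of all.

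Counted by probe set, carriers lay in both directions. Of 68 measured carrier probe sets, 8, or 11.8%, were at least 1.5-fold higher, against 7.27% of all measured probe sets. A further 7, or 10.3%, were at least 1.5-fold lower, against 10.1%, a share near the background. At 2-fold, 1 was higher, against 1.99% of all, and 2 were lower, against 2.97%. The 7 lower probe sets belonged to Slc25a5, Slc25a30, Slc25a44 and Slc25a51, each of which was within 1.5-fold on its brightest probe set. Likewise 3 of the 8 higher probe sets were dimmer ones of Slc25a4, Slc25a27 and Slc25a29. That of Slc25a27 was below the limit in AL and, set against the limit, was at least 1.47-fold higher, short of 1.5-fold.

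**Figure D1:**
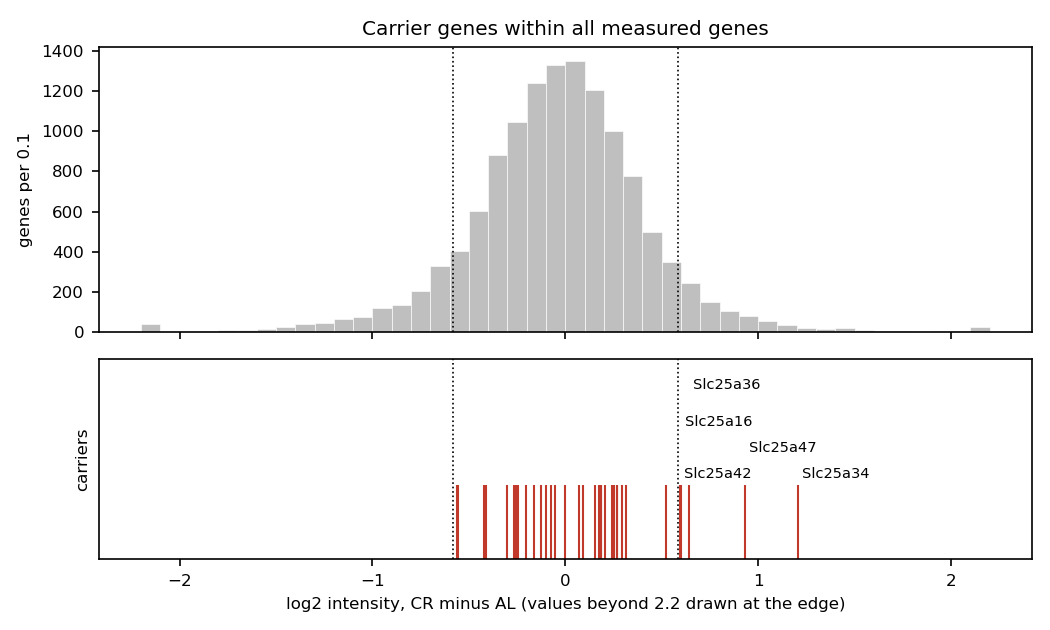
Distribution of the log2 difference, CR minus AL, over 12644 measured genes (grey bars, genes per 0.1) and the same difference for each of 37 carriers (red lines); dotted lines mark 1.5-fold. The carriers reach from -0.56 to 1.21, with 5 past the upper line and none past the lower line.

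The stretches just before the RefSeq gene starts of 4 of the 5 higher carriers are shown, because they hold matches to short motifs known from liver and housekeeping promoters. Each is the 250 bases before the start in GRCm38.p6, 5′ to 3′ on the gene's strand. Slc25a34 is at chr4:141623835-141624084 on the minus strand, Slc25a47 at chr12:108850879-108851128 on the plus strand, Slc25a36 at chr9:97111042-97111291 on the minus strand and Slc25a42 at chr8:70212282-70212531 on the minus strand. Capitals mark matches, on either strand, to 7 motifs: the nuclear receptor hexamer AGGTCA, the cyclic AMP response element TGACGTCA, the E-box CACGTG, the GC box GGGCGG, the CCAAT box, the TATA box TATAAA and the FoxO site TGTTTAC.
Slc25a34 promoter: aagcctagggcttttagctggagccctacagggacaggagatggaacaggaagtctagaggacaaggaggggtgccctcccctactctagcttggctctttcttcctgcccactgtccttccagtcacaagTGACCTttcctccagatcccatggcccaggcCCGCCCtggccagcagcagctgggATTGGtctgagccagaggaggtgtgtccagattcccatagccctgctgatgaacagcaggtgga
Slc25a47 promoter: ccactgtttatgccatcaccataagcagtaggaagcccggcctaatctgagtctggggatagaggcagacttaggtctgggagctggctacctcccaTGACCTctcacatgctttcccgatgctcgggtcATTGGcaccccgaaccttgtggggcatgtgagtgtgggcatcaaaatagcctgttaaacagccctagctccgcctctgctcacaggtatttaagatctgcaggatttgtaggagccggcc
Slc25a36 promoter: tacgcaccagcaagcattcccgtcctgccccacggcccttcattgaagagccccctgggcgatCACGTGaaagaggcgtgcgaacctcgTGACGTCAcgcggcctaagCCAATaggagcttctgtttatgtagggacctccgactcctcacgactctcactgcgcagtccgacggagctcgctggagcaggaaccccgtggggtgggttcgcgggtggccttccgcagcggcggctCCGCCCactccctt
Slc25a42 promoter: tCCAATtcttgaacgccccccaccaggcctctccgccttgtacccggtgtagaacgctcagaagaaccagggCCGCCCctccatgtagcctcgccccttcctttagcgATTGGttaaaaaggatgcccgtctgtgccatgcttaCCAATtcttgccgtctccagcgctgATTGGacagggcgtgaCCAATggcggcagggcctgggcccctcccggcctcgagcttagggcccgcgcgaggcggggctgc

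The hexamer AGGTCA, read here as TGACCT on the other strand, began 119 bases before the Slc25a34 start and 153 bases before that of Slc25a47. It was found in 6 of the 33 carriers with a RefSeq window, Slc25a34, Slc25a39, Slc25a45, Slc25a47, Ucp1 and Ucp3, and in 14.0% of all 32851 windows. The cyclic AMP response element was found in Slc25a36 and Slc25a25, and in 1.55% of all windows. Slc25a36 also held the E-box, as did 5 carriers in all and 6.02% of all windows. Slc25a42 held 5 CCAAT boxes, a number reached by 0.213% of all windows, while at least 1 CCAAT box stood in 16 of 33 carriers and 33.8% of all windows. The GC box was found in 23 of 33 carriers and 32.7% of all windows. The median GC content was 59.6% over the first window of each carrier, against 52.4% over all windows. The TATA box stood in 1 carrier, Slc25a18, and in 12.4% of all windows. The FoxO site stood in no carrier window and in 3.17% of all. The window of Slc25a16 held none of these letters. A carrier was counted if any of its windows matched, while the shares are of single windows, 32851 of them for 27025 genes. The carrier counts and the shares thus have unlike units. A match is a run of letters and not a shown binding site.

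Cofactor carriers held 3 of the 5 higher genes, or 3 of the 7 measured in that class, against the 6.76% of all genes. Slc25a47, known from hepatocytes and reported as a carrier of NAD, read 628 in AL and 1199 in CR. It was 1.91-fold higher in CR (difference 0.93), on the only probe set it had, which carries a suffix for probes that can match several transcripts. Slc25a16, named after the autoantigen of Graves' disease and linked to coenzyme A by its yeast relative, stood at 257 in AL and 388 in CR, 1.51-fold higher (0.60). Slc25a42, which brings coenzyme A into the matrix in exchange for adenine nucleotides, stood at 97.4 in AL and 147 in CR, also 1.51-fold higher (0.60). Its other probe set was dim and lay the other way, with 7.86 in AL and 6.82 in CR. The values of Slc25a16 and Slc25a42 lay just past the 1.5-fold line, at a log2 difference of 0.585. Both calls ended when each array was centred on its median, which gave 0.583 and 0.581, and the mean over both Slc25a42 probe sets was 0.20.

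The other 4 measured cofactor carriers were within 1.5-fold on their brightest probe sets. Slc25a17, the peroxisomal carrier of coenzyme A, FAD and NAD, read 14.6 in AL and 12.3 in CR (-0.24). On their brightest probe sets Slc25a42 and Slc25a16 were thus higher in the CR pool and Slc25a17 slightly lower, with no test of that contrast possible. The link of Slc25a16 to coenzyme A rests on its yeast relative, and the dimmer probe set of Slc25a42 lay the other way. Slc25a51, the mammalian mitochondrial NAD carrier, had 311 in AL and 332 in CR on its brightest probe set and 136 and 149 on another, but 115 and 76.2 on the third, a difference of -0.60. Slc25a26, which imports S-adenosylmethionine, had probe sets at -0.16 and -0.12. Slc25a32, the folate and FAD carrier, read 10.7 in AL and 10.3 in CR (-0.06).

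Enzymes that make these cofactors differed gene by gene. Of 12 measured genes of coenzyme A and NAD synthesis, 1 was at least 1.5-fold higher, against 6.76% of all measured genes, and 1 lower, against 9.49%. The median was 0.02. The higher one was Nampt, the NAD salvage enzyme, with 47.3 in AL and 159 in CR, and the lower one was Pank4, a relative of the pantothenate kinases, at -0.69. Pank3, a pantothenate kinase at the start of coenzyme A synthesis, stood at 0.58, just short of 1.5-fold, with another probe set at 1.69, and the next enzyme, Ppcs, at 0.56. Pank1, the kinase abundant in liver, stood at 0.21 and Coasy, the last enzyme of the pathway, at 0.32.

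Of the pyrimidine nucleotide carriers, which supply the matrix with building blocks for mitochondrial DNA and RNA, 1 of 2 was higher. Slc25a36 had 58.4 in AL and 91.0 in CR, 1.56-fold higher (0.64). Its other 2 probe sets lay below the measured range. Slc25a33, the related carrier known to respond to insulin, had 208 in AL and 207 in CR. The values of Slc25a33 were thus almost equal in the pools, while Slc25a36 was higher in CR.

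Slc25a34, whose substrate is not settled, had the largest difference of any carrier on a brightest probe set. Its single probe set read 29.4 in AL and 68.0 in CR, 2.31-fold higher (1.21). Other carriers without a settled substrate were within 1.5-fold. Slc25a45 read 117 in AL and 87.8 in CR (-0.42). Slc25a46, an outer membrane protein of mitochondrial dynamics, had both probe sets above 0, at 0.27 and 0.12, and Slc25a53 stood at 0.24. Slc25a35 was below the measured range, with 4.82 in AL and 3.98 in CR.

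**Figure D2:**
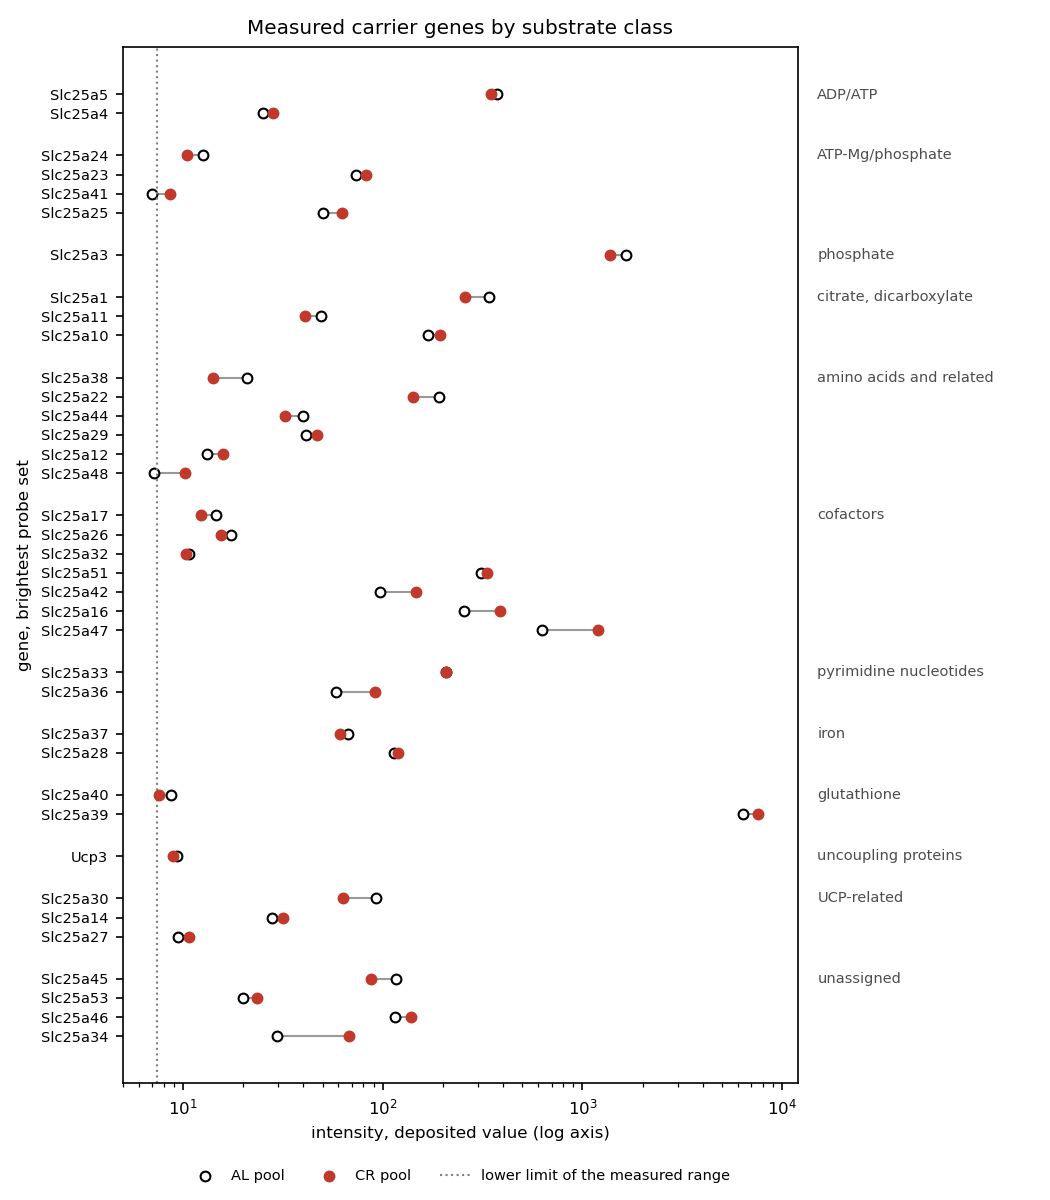
Intensity of each of 37 measured carriers in the AL pool (open circles) and the CR pool (red circles) on a log axis, on the brightest probe set of each gene, grouped by substrate; the dotted line is the limit of 7.38. The widest gaps towards CR are those of Slc25a34, 29.4 to 68.0, and Slc25a47, 628 to 1199, and the widest towards AL are those of Slc25a38 and Slc25a30.

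The ADP/ATP carriers, which export the ATP made by oxidative phosphorylation, were within 1.5-fold on their brightest probe sets. Slc25a5, the isoform also called Ant2, had 8 probe sets, all of them measured and all lower in CR. On the brightest it had 373 in AL and 348 in CR, a difference of -0.10, and the others ran down to -0.99, where it had 157 in AL and 78.7 in CR. Of the 8, 4 were at least 1.5-fold lower, and the mean difference was -0.56 ± 0.32 (SD over 8 probe sets of the same 2 pools, not replicates). The suffix for probes shared with other sequences stood on 6 of the 8, so related transcripts may enter these values. Slc25a5 is made in most cell types, and markers of some of these, but not of all, were lower beside it. Of 11 measured Kupffer cell and macrophage markers 5 were at least 1.5-fold lower, against 9.49% of all genes, the other 6 ran up to C1qb at 0.05, and the 12 representative probe sets of the list summed to 2935 in AL and 2533 in CR. Of 3 measured neutrophil markers 2 were at least 1.5-fold lower, with sums over 4 probe sets of 116 and 42.2, and of 4 measured T and B cell markers none was. The third neutrophil marker, Elane, stood at -0.50. Of 7 measured stellate cell markers 1 was at least 1.5-fold lower, with sums of 630 in AL and 704.5 in CR. None of 6 measured endothelial and 3 measured cholangiocyte markers was, and the medians of these lists were 0.10 and 0.29. No marker of these lists was at 0. Their part in the Slc25a5 values was not tested. Slc25a4, the heart and muscle isoform Ant1, had 25.1 in AL and 28.3 in CR, and its other measured probe sets lay at 0.72 and -0.29, with intensities of 8.15 to 15.6. Slc25a31, the germ cell isoform, was below the measured range, with 2.98 and 3.24.

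Slc25a3, the phosphate carrier that feeds ATP synthase, read 1654 in AL and 1376 in CR (-0.26). ATP synthase, which works with the ADP/ATP and phosphate carriers, had 15 measured subunit and regulator genes with a median of -0.17. Of the 15, 10 were below 0 and 5 above, where 47.4% of all measured genes were above 0. On the brightest probe sets Atp5b, the catalytic beta subunit, was at least 1.5-fold lower at -0.66, and none of the 15 was 1.5-fold higher. The probe sets of Atp5a1 ran from -0.367 to 1.499, and those of Atp5o from -0.703 to 0.329.

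The calcium-regulated ATP-Mg/phosphate carriers, which set the matrix pool of adenine nucleotides, were all within 1.5-fold. Slc25a25 had 3 measured probe sets on both sides of 0, at 0.32, -0.42 and 0.08. Slc25a23 read 73.9 in AL and 82.2 in CR (0.15), and Slc25a24 read 12.5 and 10.5 (-0.26). Slc25a41, the member without the calcium-binding domain, lay below the limit in AL and read 8.58 in CR, which is at least 1.16-fold higher against the limit. Slc25a54 was below the measured range in both pools. Among 6 measured genes of calcium uptake and release, the uniporter pore gene Mcu stood at -0.78. The regulator Micu3 was below the limit in AL and read 9.94 in CR, at least 1.35-fold higher against it.

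Carriers of citrate and dicarboxylates were within 1.5-fold. Slc25a1, which exports citrate for fatty acid and sterol synthesis, had 342 in AL and 257 in CR, a difference of -0.41. Acly, the enzyme that splits the exported citrate, read 498 in AL and 278 in CR (-0.84), although its probe sets ran from -1.18 to 0.04. Slc25a10, the dicarboxylate carrier used by gluconeogenesis, read 168 in AL and 194 in CR (0.21), and its dimmer probe set lay at -0.10. Slc25a11, the oxoglutarate carrier of the malate-aspartate shuttle, stood at -0.26. Of 8 measured enzymes of citrate and isocitrate handling, Idh2, the NADP-linked matrix isocitrate dehydrogenase, was at least 1.5-fold higher at 0.95 and Acly lower. The shares over all measured genes were 6.76% and 9.49%, and the median of the 8 enzymes was -0.21. Of 7 redox shuttle enzymes, the matrix aspartate aminotransferase Got2 and the glycerol phosphate dehydrogenase Gpd1 were at least 1.5-fold lower, at -0.62 and -0.61. That is 2 of 7 on the brightest probe sets, against 9.49% of all measured genes. The probe sets of Gpd1 ran up to -0.08. Gpd2, the other glycerol phosphate dehydrogenase, stood at -0.51, with probe sets from -1.02 to -0.18. The other 4 shuttle enzymes were above 0 on their brightest probe sets, although those of Mdh1 ran from -0.62 to 0.36. Of 13 enzymes of the tricarboxylic acid cycle and anaplerosis, Dld, shared by the matrix dehydrogenase complexes, stood at -1.86 and Idh3a at -0.80, with probe sets up to 0.45, and the median was 0.01.

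The lowest difference on a brightest probe set was that of an amino acid carrier. Slc25a38, which imports glycine for heme synthesis, had 20.9 in AL and 14.1 in CR, a difference of -0.56 and just inside the 1.5-fold line. Slc25a22, a glutamate carrier, read 191 in AL and 142 in CR (-0.42). Glud1, the matrix enzyme that breaks down glutamate, was at least 1.5-fold lower, with 1072 in AL and 546 in CR and probe sets from -0.97 to -0.26. Slc25a44, the carrier of branched-chain amino acids, had all 3 probe sets below 0. It stood at -0.30 on its brightest, with 40.0 in AL and 32.5 in CR, at -0.34 on another, and at -1.15 on the third, with 51.0 in AL and 23.1 in CR. Its downstream enzymes Bckdha and Bckdhb stood at -0.27 and -0.17, and Dbt, of the same complex, at 0.58.

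Other amino acid carriers lay near 0 or above. Slc25a12, the aspartate-glutamate carrier of heart and brain, read 13.2 in AL and 15.9 in CR (0.27). Slc25a29, which carries basic amino acids, had 5 measured probe sets, 2 above 0 and 3 below. They ran from -0.22 to 0.68, the last with 11.1 in AL and 17.9 in CR. Slc25a48, grouped here and reported to import choline, lay below the limit in AL and read 10.2 in CR, which is at least 1.39-fold higher against the limit. Slc25a18 and Slc25a2 were below the measured range. Of 8 measured matrix enzymes of amino acid use, Glud1 alone was at least 1.5-fold lower, against 9.49% of all measured genes. None was 1.5-fold higher, against 6.76%.

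Iron and glutathione carriers were within 1.5-fold. Slc25a28 and Slc25a37, the mitoferrins that bring iron into the matrix, stood at 0.07 and -0.13. Slc25a37 had 66.9 in AL and 61.3 in CR. Slc25a39, a carrier of glutathione, had 4 of 5 probe sets above 0, with 6353 in AL and 7564 in CR on the brightest, and the fifth at -0.35. Its relative Slc25a40 stood at -0.21, near the limit. The 15 measured genes of heme and iron-sulfur synthesis had a median of -0.12. Among them Alas1, the rate-limiting enzyme of heme synthesis in liver, stood at -0.75, its other probe set at -0.12. Urod stood at 0.72, its other probe set at -0.24. Of 9 glutathione genes, Gsr, which regenerates glutathione, was at least 1.5-fold lower at -0.92, its other probe set at -0.28, and the median was -0.22. Beside Slc25a38 and Slc25a37, which red cell precursors also use, 2 of 3 measured erythroid markers were at least 1.5-fold lower in CR, against 9.49% of all genes. They were Alas2 and Tfrc, while the third, Epb42, stood at 0.02. The sum over 4 erythroid marker intensities was 114 in AL and 50.7 in CR, with Alas2 at 40.1 and 7.43 and none at 0. Their part in the carrier values was not tested.

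The uncoupling proteins were low or near the limit. Ucp1 was below the measured range, with 4.33 in AL and 4.21 in CR, as was the brown fat marker Cidea, with 5.92 and 6.50. The brown fat marker Prdm16 was below it on its brightest probe set, with 6.16 and 6.95. Another Prdm16 probe set reached the limit on at least 1 array, at a difference of 0.49. Of the other brown fat markers, Dio2 reached the limit in CR alone, with 6.53 and 7.39, while Ppargc1a and Elovl3, which liver also makes, read 48.2 and 64.5, and 827 and 39.6. Ucp3, best known from muscle, had 9.36 in AL and 8.89 in CR. Of 6 muscle markers 2 were measured, Ckm with 11.4 in AL and 14.4 in CR and Mb with 12.0 and 9.91, and Acta1, Myh4, Myh1 and Tnnt3 were below the measured range.

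Slc25a30, a carrier related to the uncoupling proteins and named for kidney mitochondria, had the largest difference of any carrier probe set. That probe set read 64.3 in AL and 15.5 in CR, 4.15-fold lower (-2.05). The brightest probe set read 93.0 and 63.1 (-0.56), another 18.2 and 14.8 (-0.30), and the dimmest of the measured ones 6.74, below the limit, and 8.43. The probe sets above the limit in both pools were thus all lower in CR, by amounts that differed widely. Slc25a14, called Ucp5, stood at 0.18, and Slc25a27, called Ucp4, had a probe set at 0.18 and another below the limit in AL, which read 10.8 in CR and was at least 1.47-fold higher against the limit.

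**Figure D3:**
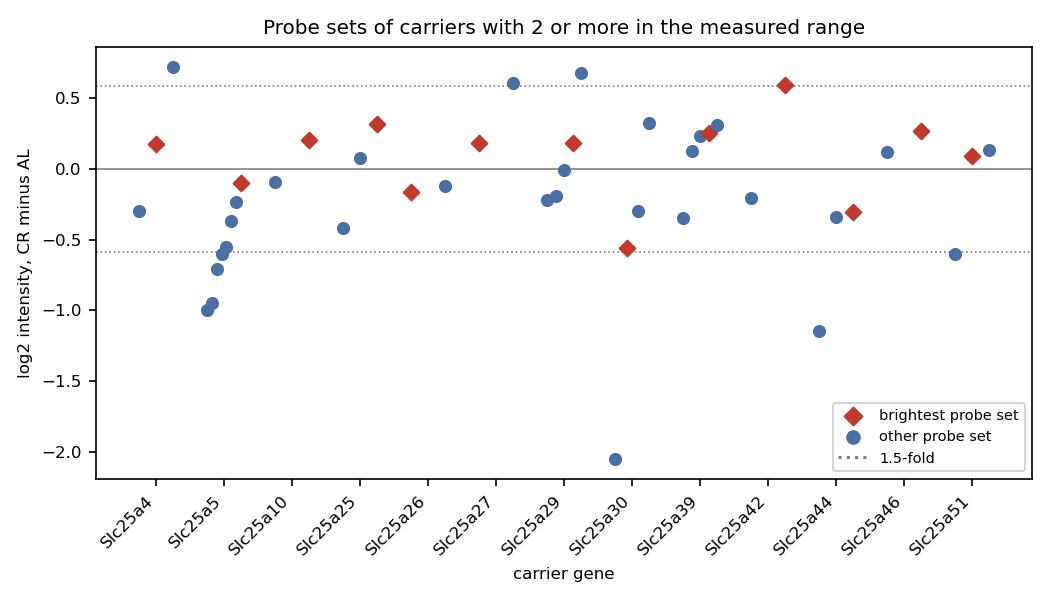
Log2 difference, CR minus AL, of each measured probe set for the 13 carriers with 2 or more; red diamonds are the brightest probe set of a gene, blue circles the others, and dotted lines mark 1.5-fold. All 8 probe sets of Slc25a5 and all 3 of Slc25a44 lie below 0, Slc25a30 reaches -2.05, and 8 genes have probe sets on both sides of 0.

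The spread between probe sets of a gene limits these values. Among the 13 carriers with 2 or more measured probe sets, the median SD of their differences was 0.37, against 0.29 over 4924 genes of this kind. Probe sets on both sides of 0 were found in 8 of the 13, or 61.5%, against 52.7% of those genes. The other 24 measured carriers had 1 measured probe set, among them 4 of the 5 higher ones. Scaling the arrays on their hybridisation control spikes moved the median gene to -1.04 and turned the direction of Slc25a16, Slc25a36, Slc25a42 and Slc25a47, so all differences are relative to the typical gene.

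Proteins that work beside the carriers included members on both sides. Carrier proteins enter the mitochondrion through the TOM complex, small chaperones of the intermembrane space and the TIM22 complex. Of 13 measured genes of that route, 2 were at least 1.5-fold higher, against 6.76% of all measured genes, and 3 lower, against 9.49%. The median was 0.03. The higher ones were the small chaperone gene Timm8a1 at 0.87 and the carrier receptor Tomm70a at 0.59, although the probe sets of Tomm70a ran down to -0.62. The lower ones were Timm8b at -0.97, the pore gene Tomm40 at -0.80 and Timm10b at -0.68, with probe sets up to 0.20. Timm22 itself, the channel that inserts carriers, stood at 0.09. Of 7 measured genes of the pyruvate carrier, the porins and the sideroflexins, 2 were at least 1.5-fold higher, against the same 6.76%. They were Sfxn2 at 0.97 and the serine transporter Sfxn1 at 0.59. The probe sets of Sfxn2 ran down to 0.16, and the other one of Sfxn1 stood at 0.23. Vdac1, the main outer membrane porin, stood at 0.29 and the pyruvate carrier subunit Mpc1 at 0.02. Of 10 measured genes of folate and S-adenosylmethionine metabolism, none passed 1.5-fold in either direction on its brightest probe set. The probe sets of Mthfd1 ran from -0.72 to 0.20.

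**Figure D4:**
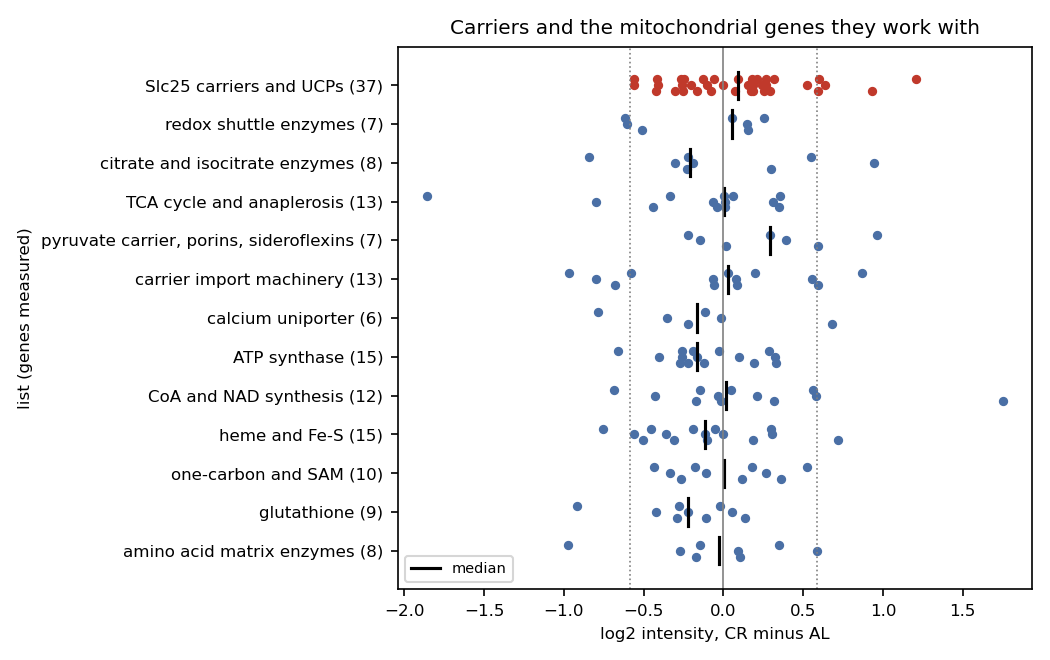
Log2 difference, CR minus AL, of each measured gene (points) and the median (black bars) for the carriers and 12 lists of mitochondrial and cofactor genes; the number of genes measured stands in brackets. The list medians run from -0.22 for glutathione genes to 0.29 for the pyruvate carrier, porins and sideroflexins, with the carriers at 0.09.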

How the data were processed

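Liver RNA of 2 pools, AL and CR, was measured on 1 array each. The authors deposited intensities from RMA, as the submitters' processing notes name it, and the size of the values shows a linear scale. Software, options and genome build are not given in the sources used here. Intensities were turned to log2 and CR minus AL was taken per probe set. Gene names came from the platform annotation of 2016. The limit for a measured gene, 7.38 (log2 2.88), is the 50th percentile of all values. Folds of 1.5 and 2 are sizes, not tests. The number of arrays limits the precision.

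Members, lists and rules were chosen with earlier results of these data known. Every member could be named. Both intensities were given for carriers at least 1.5-fold apart or with opposed probe sets, and up to 4 genes per list at least 1.5-fold apart were named; other values were added as context. Promoter motifs and windows (RefSeq, GRCm38.p6) were chosen after the values were seen. Of the 43 carriers, 33 had a window. Alternatives were the mean over probe sets, leaving out probe sets with suffix _x_at, _s_at or _a_at, limits of none and the 75th percentile (21.0), centring, loess (span 0.4), scaling on spikes, and 8 added before log2. Counting and the choice of probe set were tested on simulated data, with log2 differences of 1.5 planted in bright genes. These are larger than that of any carrier on its brightest probe set, so calls near the 1.5-fold line were not tested. The tools were matplotlib 3.10.9, statsmodels 0.14.6, pandas 2.3.3, numpy 2.4.6 and Python 3.11.15.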

Additional observations from a re-analysis of the deposited data

How the results depend on the processing

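The count of 5 carrier genes at least 1.5-fold higher became 3 with the mean over probe sets, 3 without probe sets of the shared types, 3 after centring, 2 with 8 added before log2, 1 after scaling on the cre spike and 0 after scaling on all hybridisation spikes. The count of 0 at least 1.5-fold lower became 1 with the mean, 1 without the shared types (29 carriers measured, not 37), 10 on cre and 31 on all spikes. Over all genes the 1200 lower became 805, 1092, 3944 and 11144 under these settings. The 855 higher became 423 with the mean, 644 without the shared types, 813 after centring, 558 with 8 added, 258 on cre and 61 on all spikes. At 2-fold, the 1 higher gene became 0 on either spike scaling, and the 0 lower became 1 without the shared types and 17 on all spikes. Over all genes the 227 higher at 2-fold became 96 on cre and 33 on all spikes. The 353 lower became 318 without the shared types and 6857 on all spikes. The median of 0.09 became -0.28 on cre and -0.92 on all spikes, where the median over all genes was -0.40 and -1.04. The 8 probe sets at least 1.5-fold higher became 3 without the shared types, 5 at the stricter limit, 2 with 8 added, 1 on cre and 0 on all spikes. The 7 lower became 3 without the shared types, 26 on cre and 59 on all spikes. At 2-fold, the 1 higher probe set became 0 on either spike scaling, and the 2 lower became 1 with 8 added, 5 on cre and 38 on all spikes. On all spikes Slc25a16 stood at -0.42, Slc25a36 at -0.38, Slc25a42 at -0.42 and Slc25a47 at -0.082, while Slc25a34 stayed above 0 at 0.19. Averaging took Slc25a36 to 0.22, Slc25a42 to 0.20 and Slc25a44 to -0.60. The mean was over all probe sets of a gene, also those below the limit, where all but the brightest of Slc25a36 lay. Slc25a30 stood at -2.05 and Slc25a5 at -0.56 without the shared types. A gene's value was taken as unmoved within 0.29, the median SD between probe sets. Centring moved every difference by -0.015, which took Slc25a16 to 0.583 and Slc25a42 to 0.581, under the line at 0.585. The added 8 shrinks every difference and took Slc25a36 to 0.58 as well. Fewer probe sets, or a shift of every gene, are part of the other settings. No replicate could be left out, and the mean over probe sets gives no count of probe sets. No paired analysis was possible because each group had 1 array.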
